A study of Mus musculus with 28 samples.

Results

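Sciatic nerves of mice at postnatal day (P) 14 were compared with those at P5 by poly-A RNA sequencing. The comparison uses 8 of the 28 libraries of a developmental series, 4 labelled P5 and 4 labelled P14, and all genes of the count table. All mice were of the strain C57bl6/J, carried no transgene, received no treatment and were not perfused, so blood remained in the nerve. Each of the 8 libraries came from the sciatic nerves of 1 mouse, with 2 males and 2 females at each age, although the labels do not say which library is which. The authors stripped the epineurium and perineurium, the sheaths around the nerve and its fascicles, before extraction, which leaves mainly the endoneurium, the compartment that holds the axons and their Schwann cells. The comparison asks which transcripts change while the myelin sheath grows from its early layers towards its peak of synthesis.

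Myelin in the peripheral nerve is made by Schwann cells. A Schwann cell first divides and sorts axons out of a bundle, then takes up a 1:1 relation with a large axon and wraps its membrane around it many times. The wraps are compacted by a small set of abundant membrane proteins, and their membrane is rich in cholesterol and in galactolipids made from very long chain fatty acids. Transcription factors such as Egr2 and Sox10 switch this programme on, while a set of negative regulators keeps Schwann cells in an immature, dividing state. Around the fascicle the perineurium and, inside it, the endoneurial blood vessels become a barrier during the same weeks.

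Levels are given as CPM, read counts set to a common library total that was scaled by the TMM method, so that they can be compared between libraries. Changes are log2 fold changes of P14 against P5 ± SE. The spread behind each SE and p was estimated from all 28 libraries of the series, not from these 8 alone. A gene rose or fell, in the wording used here, when edgeR's quasi-likelihood test gave a p under 0.05 after Benjamini-Hochberg adjustment across every gene tested and the change was at least 2-fold. Library totals ran from 25311104 to 37662780 counts at P5 and from 21730556 to 32335676 at P14. In a principal component analysis of the 2000 most variable genes of these 8 libraries, component 1 (66.2% of the variance) separated the ages. Component 2 (9.7%) placed replicates 1 and 2 on one side and replicates 3 and 4 on the other at both ages. Because these are whole-tissue samples, more cells of a type and more RNA per cell cannot be told apart for any gene below.

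Of the 17700 genes tested, 29.6% had an adjusted p under 0.05 and 12% also changed at least 2-fold. The rises were 1258 genes, or 7.11%, and the falls 869 genes, or 4.91%, the shares against which every count of rises and falls in a gene list below is to be read. Fold changes of at least 4 were reached by 441 of the rises and 267 of the falls, and of at least 8 by 170 and 68. In 1953 of the 2127 genes (91.8%) the 4 P5 and 4 P14 libraries did not overlap, against 43.6% of all genes tested. Under library totals alone, without the TMM scaling, 991 genes rose and 1152 fell, and the median log2 change of all genes was -0.17 in place of 0.00. The 10 most abundant genes of each library held 16.9 ± 0.435% of its counts at P5 and 23.3 ± 0.744% at P14 (SD, n = 4, two-sided exact permutation p = 0.029, the smallest 4 against 4 libraries can give).

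The same genes were then read in P24 against P1, a contrast that uses none of these 8 libraries and whose ages lie on either side of them. There 29.7% of all genes tested passed the thresholds. Of the 1258 genes higher at P14, 1139 (90.5%) also rose from P1 to P24, and of the 869 lower genes 777 (89.4%) also fell. A change of the same sign was seen for 98.6% of the rises and 98.6% of the falls, and for 80.6% of the genes not called. Over the whole series, 732 of the rises (58.2%) had their highest stage mean at P60, 221 (17.6%) at embryonic day (E) 13, 196 at P24 and 89 at P14. Of the falls, 389 (44.8%) had theirs at E17, 261 at E13, 151 at P1 and 66 at P5. The E13 libraries were pools of various nerves from 2 embryos each. Most of the rises were thus not at their highest at P14.

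**Figure D1:**
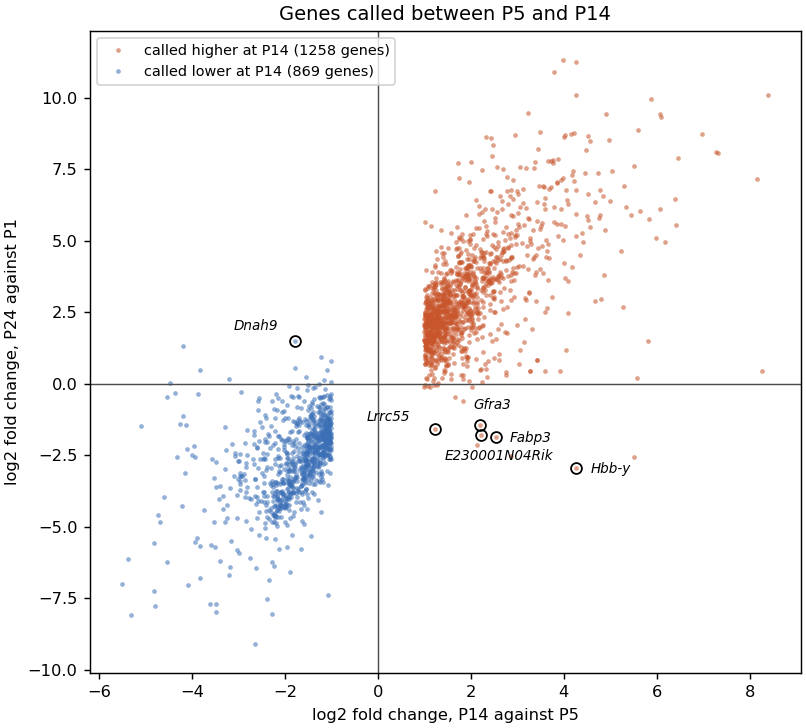
Each point is 1 of the 2127 genes called between P5 and P14, with its log2 fold change of P14 against P5 on the horizontal axis and that of P24 against P1 on the vertical axis (red, higher at P14; blue, lower). Nearly all points lie in the lower left and upper right, and the 6 circled genes were called in opposite directions by the 2 contrasts.

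Other tissue moved with age and is given here because it bears on several groups below. The summed level of 10 perineurial markers was 186 to 238 CPM at P5 and 513 to 637 at P14, and that of 10 epineurial markers 319 to 416 and 814 to 861, although both layers had been stripped. Skeletal muscle genes summed to 4.93 to 7.44 CPM at P5 and 20.8 to 26.2 at P14. Adipocyte genes summed to 11.9 to 47.9 CPM at P5 and to 147, 131, 178 and 24.3 CPM in P14 replicates 1 to 4, so that 1 P14 library stood within the P5 range. Over the processing alternatives 1 to 9 of the 10 adipocyte genes were called, 7 in the main test and 4 without P14 replicate 1. The epidermal markers Krt5, Krt14, Lor and Dsg3 had no count in any of the 8 libraries, and the whole epidermis list of 8 genes summed to 2.52 to 3.6 CPM at P5 and 3.43 to 4.13 at P14. The clone Gm42418, which overlaps the annotated clones AY036118 and CT010467.1 on the other strand, ranged from 1533 to 7357 CPM at P5 and from 1901 to 21974 at P14, and mt-Rnr2, the mitochondrial 16S ribosomal RNA, from 664 to 1336 and from 1134 to 3871. P14 replicates 1 and 2 held most of both. The part of these values in the results was not tested.

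Most structural genes of compact myelin had a higher level at P14, by less than 2-fold. None of the 8 listed genes passed the fold minimum, 6 of 8 had an adjusted p under 0.05 with a higher level at P14, against 15.4% of all genes tested, and the list median was 0.68 against 0.00 for all genes. Pmp22, a tetraspan protein of compact myelin whose dosage causes demyelinating neuropathy in humans, had 27033, 26614, 26810 and 27441 CPM at P5 and 47900, 52573, 55245 and 51961 at P14. The groups did not overlap, and the log2 change was 0.94 ± 0.13 (adjusted p = 3.3e-06). Mbp, the basic protein on the inner face of the membrane, had 25292 to 30643 CPM at P5 and 43959 to 57223 at P14 (0.91 ± 0.20, adjusted p = 9.5e-04). Mal, a lipid raft protein, had 3585 to 4387 and 6419 to 7130 CPM (0.81 ± 0.11, adjusted p = 2.9e-06). Per length of exon Pmp22 led this group at both ages, at 11459 CPM per kilobase at P5 and 22056 at P14, before Mbp at 3241 and 6076 and Mal at 1387 and 2425.

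Of 20 genes of non-compact myelin and myelin adhesion, 2 rose and 1 fell, shares near those of all genes tested (7.11% and 4.91%), and the list median was 0.02. Drp2, which links periaxin to the dystroglycan complex in the patches where the outer membrane is held to the sheath, had 807, 797, 760 and 847 CPM at P5 and 3157, 3434, 3647 and 3051 at P14. All 4 P14 libraries were more than 3 times the highest P5 library, with a log2 change of 2.05 ± 0.13 (adjusted p = 5.8e-12). Prx itself, the periaxin gene and partner of Drp2, had 6047 to 7273 and 8631 to 10410 CPM, a change of 0.54 ± 0.20 (adjusted p = 0.048). The calcium-binding protein S100b rose from 292 to 333 CPM to 623 to 714 (1.10 ± 0.13, adjusted p = 2.8e-07), a call that was lost under library totals alone. The scaffold gene Mpp6, whose protein sits in the incisures, fell from 245 to 298 CPM to 105 to 131 (-1.21 ± 0.20, adjusted p = 4.5e-05).

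Gap junction genes of the same cells differed in direction without passing the fold minimum. Gjb1, the connexin of the incisures and paranodes, had 89.1 to 99.6 CPM at P5 and 139 to 177 at P14 (0.71 ± 0.17, adjusted p = 0.0025), while Gjc3, another glial connexin, had 1591 to 1917 and 948 to 1075 (-0.77 ± 0.15, adjusted p = 3.5e-04). Ncmap, a protein of non-compact myelin, had 647 to 696 CPM at P5 and 1183 to 1456 at P14 (0.95 ± 0.17, adjusted p = 1.1e-04). The levels of the incisure claudin Cldn19 (2097 to 2335 and 1878 to 2146 CPM) and of Mag, the periaxonal adhesion molecule (885 to 1046 and 801 to 984), overlapped between the ages. Of 16 node and paranode genes none was called, 4 had an adjusted p under 0.05 with a higher level at P14 and 1 with a lower level (15.4% and 14.2% of all genes tested). Nfasc, the neurofascin of node and paranode, was among the 4, with 389 to 408 CPM at P5 and 635 to 702 at P14 (0.74 ± 0.13, adjusted p = 5.5e-05).

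**Figure D2:**
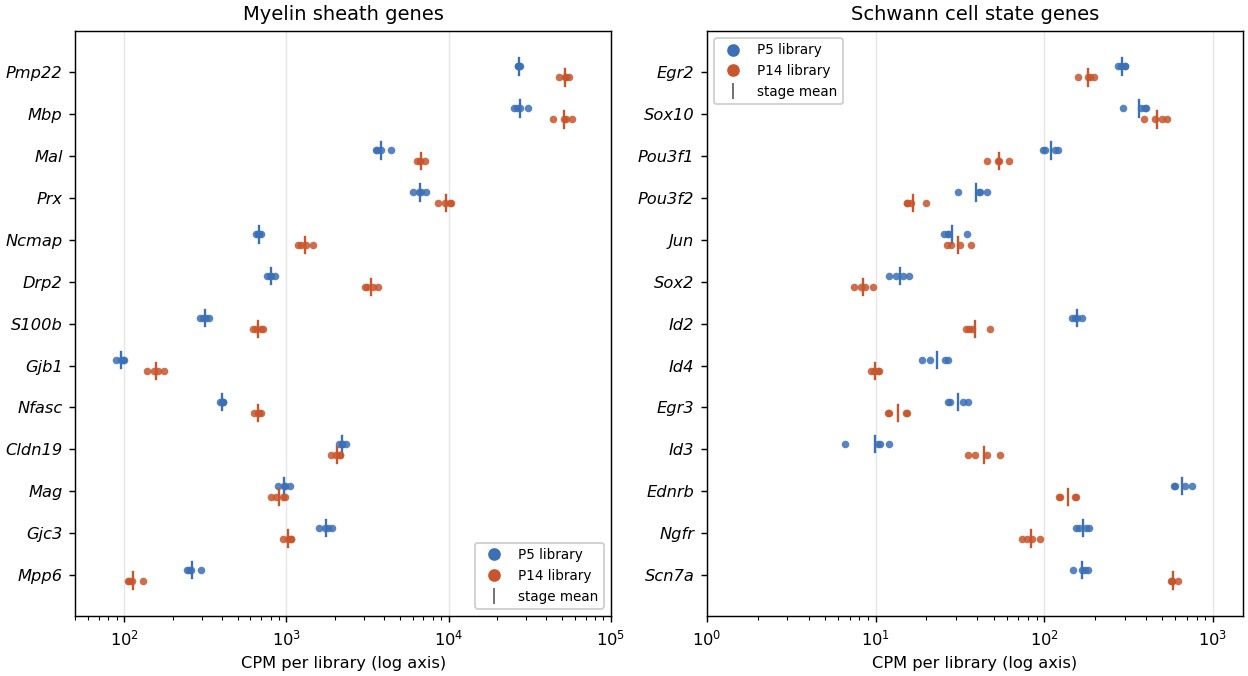
CPM on a log axis in the 4 P5 (blue) and 4 P14 (red) libraries for 13 myelin sheath genes (left) and 13 genes of Schwann cell state (right); each point is 1 library and each bar the stage mean. Mbp goes from 25292 to 30643 CPM at P5 to 43959 to 57223 at P14, Drp2 shows the widest upward gap on the left, and Ednrb and Id2 the widest downward gaps on the right.

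Lipid synthesis genes were examined list by list. Of 20 cholesterol synthesis genes 11 had an adjusted p under 0.05 with a higher level at P14, against 15.4% of all genes tested, none with a lower one, and the list median was 0.36. Only Sc5d, which acts near the end of the pathway, passed the fold minimum, with 200 to 236 CPM at P5 and 422 to 483 at P14 (1.01 ± 0.19, adjusted p = 1.4e-04), and it lost the call under library totals alone, under limma-voom, without the filter on low counts and without P5 replicate 3 or P14 replicate 2 or 3. Hmgcs1, which acts early in the pathway, had 2570 to 2982 and 4106 to 4613 CPM (0.64 ± 0.20, adjusted p = 0.016). Neither gene overlapped between the ages.

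Of 18 genes of cholesterol uptake, efflux and control 4 rose and none fell (7.11% and 4.91% of all genes tested). Nr1h3, the nuclear receptor LXR alpha, which responds to oxysterols, had 1.67, 1.8, 2.27 and 1.95 CPM at P5 and 10.7, 12, 13.7 and 11 at P14, a log2 change of 2.62 ± 0.23 (adjusted p = 1.8e-09). Abcg1, a sterol exporter and a known LXR target, rose from 12.4 to 14.2 CPM to 41.6 to 46.4 (1.73 ± 0.17, adjusted p = 1.2e-08). Apod, a lipid carrier, rose from 166 to 237 CPM to 633 to 895 (1.93 ± 0.15, adjusted p = 9.7e-11). Lpl, the lipase that releases fatty acids from lipoproteins, rose from 22.5 to 40.1 CPM to 57.6 to 78.3 (1.19 ± 0.31, adjusted p = 0.0044). Lpl is also an adipocyte gene, and its lowest P14 level, 57.6 CPM, was in replicate 4, the library with the lowest adipocyte sum. The part of fat tissue in its rise was not tested.

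Of 24 genes of fatty acid synthesis 8 had an adjusted p under 0.05, all with a higher level at P14, against 15.4% of all genes tested. Scd2, the desaturase of the developing nerve, had 6067 to 6956 CPM at P5 and 10058 to 10647 at P14 (0.69 ± 0.09, adjusted p = 8.9e-07). Fasn, fatty acid synthase, had 604 to 794 and 787 to 1035 CPM, with overlap of the groups only between P5 replicate 3 and P14 replicate 1 (0.39 ± 0.25, adjusted p = 0.25). The single call was Thrsp, a nuclear regulator of lipid synthesis, with 0.208, 0.201, 0.385 and 0.477 CPM at P5 and 5.06, 10.5, 11 and 1.60 at P14 (4.46 ± 0.68, adjusted p = 1.2e-05). P14 replicate 4 was lowest and replicate 3 highest, as for the adipocyte sum, and the part of fat tissue in this rise was not tested. Of 20 sphingolipid and galactolipid genes 7 had an adjusted p under 0.05 with a higher level at P14 and 2 with a lower level (15.4% and 14.2% of all genes tested), and the list median was 0.07, or -0.1 under library totals alone. The only call, Cers2, the ceramide synthase for very long chains, rose from 457 to 538 CPM to 957 to 1042 (1.02 ± 0.09, adjusted p = 9.3e-10), and lost the call under library totals alone and without P5 replicate 2. Ugt8a, which makes galactosylceramide, had 1758 to 2258 and 3477 to 3842 CPM (0.85 ± 0.19, adjusted p = 9.8e-04), and Fa2h, which hydroxylates its fatty acid, 511 to 615 and 797 to 995 (0.74 ± 0.17, adjusted p = 0.0012).

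Among 16 transcription factors of the promyelinating and myelinating Schwann cell, 2 fell and none rose. These were the POU factors Pou3f1, with 98.8 to 121 CPM at P5 and 45.7 to 62.1 at P14 (-1.02 ± 0.21, adjusted p = 3.7e-04), and Pou3f2, with 30.8 to 45.5 and 15.3 to 19.8 (-1.24 ± 0.22, adjusted p = 6.1e-05). Both mark the promyelinating stage. The call for Pou3f1 was at the edge of the fold minimum and was lost under 5 alternatives. Egr2, the master regulator of myelin genes, was lower at P14 without passing the fold minimum, at 272, 303, 284 and 299 CPM at P5 and 182, 159, 186 and 198 at P14 (-0.68 ± 0.15, adjusted p = 0.0011). All 4 P14 libraries lay below every P5 library for Egr2, and above every P5 library for Pmp22 and Mbp. Sox10 had 294 to 404 and 388 to 531 CPM, with overlap (0.35 ± 0.28, adjusted p = 0.38).

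Of 14 negative regulators of myelination 6 fell and 2 rose (4.91% and 7.11% of all genes tested), and the median was -0.72. Ednrb, the endothelin receptor B of immature Schwann cells, had 588, 681, 597 and 751 CPM at P5 and 153, 125, 122 and 154 at P14. Its log2 change of -2.24 ± 0.17 (adjusted p = 9.7e-11) was the largest fall of the list among genes above 5 CPM. Id2, an inhibitor of basic helix-loop-helix factors, fell from 146 to 167 CPM to 34.5 to 47.5 (-2.0 ± 0.13, adjusted p = 3.9e-12), and Id4 from 18.8 to 26.8 to 9.39 to 10.5 (-1.21 ± 0.24, adjusted p = 3.3e-04). Egr3 fell from 26.8 to 35.4 CPM to 11.8 to 15.3 (-1.18 ± 0.20, adjusted p = 5.2e-05). The calls for Egr1 (-1.14 ± 0.39, adjusted p = 0.027) and Pax3, which had no more than 0.171 CPM in any library, were lost on leaving out any of several single libraries. In the other direction, Id3 rose from 6.57 to 11.9 CPM to 35.3 to 55 (2.15 ± 0.28, adjusted p = 9.9e-07), and the Notch target Hey2 from 0.375 to 0.685 to 1.13 to 2.70 (1.8 ± 0.41, adjusted p = 0.0014). Sox2, with 12.1 to 15.7 and 7.4 to 9.61 CPM, was lower below the fold minimum (-0.71 ± 0.17, adjusted p = 0.0026), and Jun overlapped, with 25.5 to 34.7 and 26.4 to 36.9 CPM.

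Genes used to mark immature and non-myelinating Schwann cells included 5 rises and 1 fall among 15 (7.11% and 4.91% of all genes tested). The fall was Ngfr, the p75 neurotrophin receptor, with 155 to 183 CPM at P5 and 73.7 to 93.8 at P14 (-1.02 ± 0.15, adjusted p = 5.2e-06), a call lost without P5 replicate 1 or P14 replicate 2. Scn7a, a sodium channel of the non-myelinating (Remak) Schwann cell, had 167, 175, 149 and 183 CPM at P5 and 618, 564, 572 and 572 at P14 (1.79 ± 0.44, adjusted p = 0.0025). Cdh2, the N-cadherin of immature Schwann cells, rose from 23.5 to 28.8 CPM to 54.8 to 58.6 (1.15 ± 0.13, adjusted p = 1.2e-07). Gfap, an intermediate filament of Remak cells, rose from 0.0286 to 0.330 CPM to 0.614 to 3.02 (3.42 ± 0.49, adjusted p = 5.2e-06). Fabp7, a fatty acid binding protein of Schwann cell precursors, rose from 1.00 to 1.25 CPM to 4.80 to 7.51 (2.51 ± 0.34, adjusted p = 2.2e-06). The list name therefore covers members that moved in opposite directions.

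Proliferation genes fell almost without exception. Of 50 cell cycle and mitosis genes 46 fell and none rose, against 4.91% of all genes tested that fell, all 50 had an adjusted p under 0.05 with a lower level at P14 (14.2% of all genes tested), and in all 50 every P14 library lay below every P5 library (22.0% of all genes tested). The list median was -1.84, and its summed level went from 2673 to 2971 CPM to 874 to 1078. Mki67, the gene of the Ki-67 antigen of dividing cells, had 253, 256, 267 and 327 CPM at P5 and 71.4, 55.1, 51.9 and 68.1 at P14 (-2.16 ± 0.23, adjusted p = 3.0e-08). Cdk1, the mitotic kinase, had 49.4 to 59.1 and 9.38 to 13.4 CPM (-2.26 ± 0.17, adjusted p = 9.7e-11). Top2a, which untangles DNA in mitosis, had 188 to 238 and 38.7 to 54.0 CPM (-2.20 ± 0.17, adjusted p = 1.9e-10). Ube2c, the ubiquitin conjugase of the anaphase-promoting complex, had 19.6 to 22.4 and 3.43 to 4.55 CPM (-2.34 ± 0.22, adjusted p = 4.3e-09).

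The 4 genes outside the call were Pcna, Ccnd2, Ccnd3 and Anln, and each was lower by less than 2-fold. Anln, the contractile ring protein anillin that Schwann cells also make, changed by -0.52 ± 0.17 (adjusted p = 0.024). Pcna, the sliding clamp of DNA synthesis, changed by -0.55 ± 0.09 (adjusted p = 1.6e-05), Ccnd2 by -0.58 ± 0.17 (adjusted p = 0.0099) and Ccnd3 by -0.74 ± 0.25 (adjusted p = 0.027). Ccnd1, the D-type cyclin of Schwann cells, did pass, with 506 to 544 CPM at P5 and 195 to 266 at P14 (-1.21 ± 0.26, adjusted p = 7.8e-04). Of 10 CDK inhibitors and pocket proteins none rose and 2 fell. Cdkn1c, the inhibitor p57, had 151 to 176 CPM at P5 and 38.2 to 51.0 at P14 (-1.83 ± 0.19, adjusted p = 3.9e-08), and Rbl1, the pocket protein p107, 27.0 to 33.4 and 10.8 to 12.5 (-1.36 ± 0.16, adjusted p = 1.8e-07).

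Because these genes moved together, the DNA before their start sites was searched for 2 elements known from cell cycle promoters, the CCAAT box bound by NF-Y and the cell cycle homology element TTTGAA. RefSeq windows of the 250 bases before a start site (GRCm38.p6) were found for 41 of the 50 genes, 46 windows in all, and were searched on both strands. CCAAT was present in 35 of the 46 windows (76.1%) and in 33.8% of all 32851 windows of that length. TTTGAA was present in 13 (28.3%) and in 16.0% of all windows. The sequences below are the 150 bases before the start site of the 4 called genes with at least 20 CPM at P5 that hold both elements and fell most. They show how the 2 elements lie in promoters of genes with the same change. Letters run 5′ to 3′ along the gene's strand, and capitals mark CCAAT and TTTGAA or their reverse complements. A match is a match of letters and not evidence of binding.
Ube2c, chr2:164769779-164769928 (+): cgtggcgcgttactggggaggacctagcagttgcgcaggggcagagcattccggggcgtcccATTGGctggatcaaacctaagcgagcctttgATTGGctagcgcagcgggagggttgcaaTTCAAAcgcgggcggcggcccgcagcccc
Cdk1, chr10:69352913-69353062 (-): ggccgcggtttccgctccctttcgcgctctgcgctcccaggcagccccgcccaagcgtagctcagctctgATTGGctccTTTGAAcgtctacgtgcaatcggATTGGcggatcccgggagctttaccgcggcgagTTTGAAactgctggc
Top2a, chr11:99024190-99024339 (-): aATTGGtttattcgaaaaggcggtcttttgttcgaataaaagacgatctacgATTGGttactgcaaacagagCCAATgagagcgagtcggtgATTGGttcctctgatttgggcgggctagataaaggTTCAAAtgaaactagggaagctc
Mki67, chr7:135716380-135716529 (-): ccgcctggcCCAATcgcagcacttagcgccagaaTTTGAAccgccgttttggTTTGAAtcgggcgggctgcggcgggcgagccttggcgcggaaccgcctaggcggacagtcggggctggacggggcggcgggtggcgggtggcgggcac

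Some genes of fetal growth fell as well. Of 14 oncofetal RNA-binding and chromatin genes 6 fell and none rose, with a median of -1.0, and 4 to 8 fell over the alternatives. Igf2bp3, which binds and stabilises growth mRNAs in the embryo, had 15.6, 12.9, 14.4 and 14.1 CPM at P5 and 1.79, 1.47, 0.531 and 1.63 at P14 (-3.40 ± 0.22, adjusted p = 6.3e-12). Hmga2, a chromatin protein of fetal tissue, fell from 20.5 to 25.7 CPM to 1.99 to 3.45 (-3.04 ± 0.19, adjusted p = 3.5e-12), and Igf2bp2 from 163 to 176 to 58.6 to 65.6 (-1.45 ± 0.12, adjusted p = 4.1e-10). Of 26 imprinted genes, expressed from 1 parental copy and many of them growth regulators, 11 fell and 1 rose (4.91% and 7.11% of all genes tested), and 7 fell without P14 replicate 3. Mest had 272 to 286 CPM at P5 and 51.9 to 75.8 at P14 (-2.05 ± 0.18, adjusted p = 1.1e-09). Grb10, an inhibitor of insulin receptor signalling, fell from 376 to 411 CPM to 134 to 168 (-1.38 ± 0.14, adjusted p = 1.2e-08), and Plagl1, a zinc finger factor of the imprinted network, from 202 to 247 to 62.6 to 113 (-1.29 ± 0.37, adjusted p = 0.0084).

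The growth factor Igf2 did not join this fall. It had 1001, 897, 1028 and 786 CPM at P5 and 1460, 1724, 1571 and 1917 at P14, so that every P14 library was above every P5 library, with a change of 0.85 ± 0.18 (adjusted p = 8.4e-04) below the fold minimum. Its imprinted neighbour H19 had 996 to 1442 and 1086 to 1255 CPM. The single imprinted rise, Dio3, which inactivates thyroid hormone, had no count in any P5 library and 0.102 to 0.170 CPM at P14, around the 0.128 CPM that 3 counts in the shallowest P5 library would give, so no fold is given. Igf1, the growth factor of the same family, fell from 104 to 121 CPM to 25.6 to 58.3 (-1.41 ± 0.30, adjusted p = 5.8e-04). Of its binding proteins, Igfbp2 fell from 7.38 to 11.1 CPM to 0.818 to 2.24 (-2.64 ± 0.37, adjusted p = 3.5e-06) and Igfbp6, which prefers IGF-II, rose from 10.8 to 25.5 to 75.2 to 145 (2.52 ± 0.41, adjusted p = 2.9e-05).

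**Figure D3:**
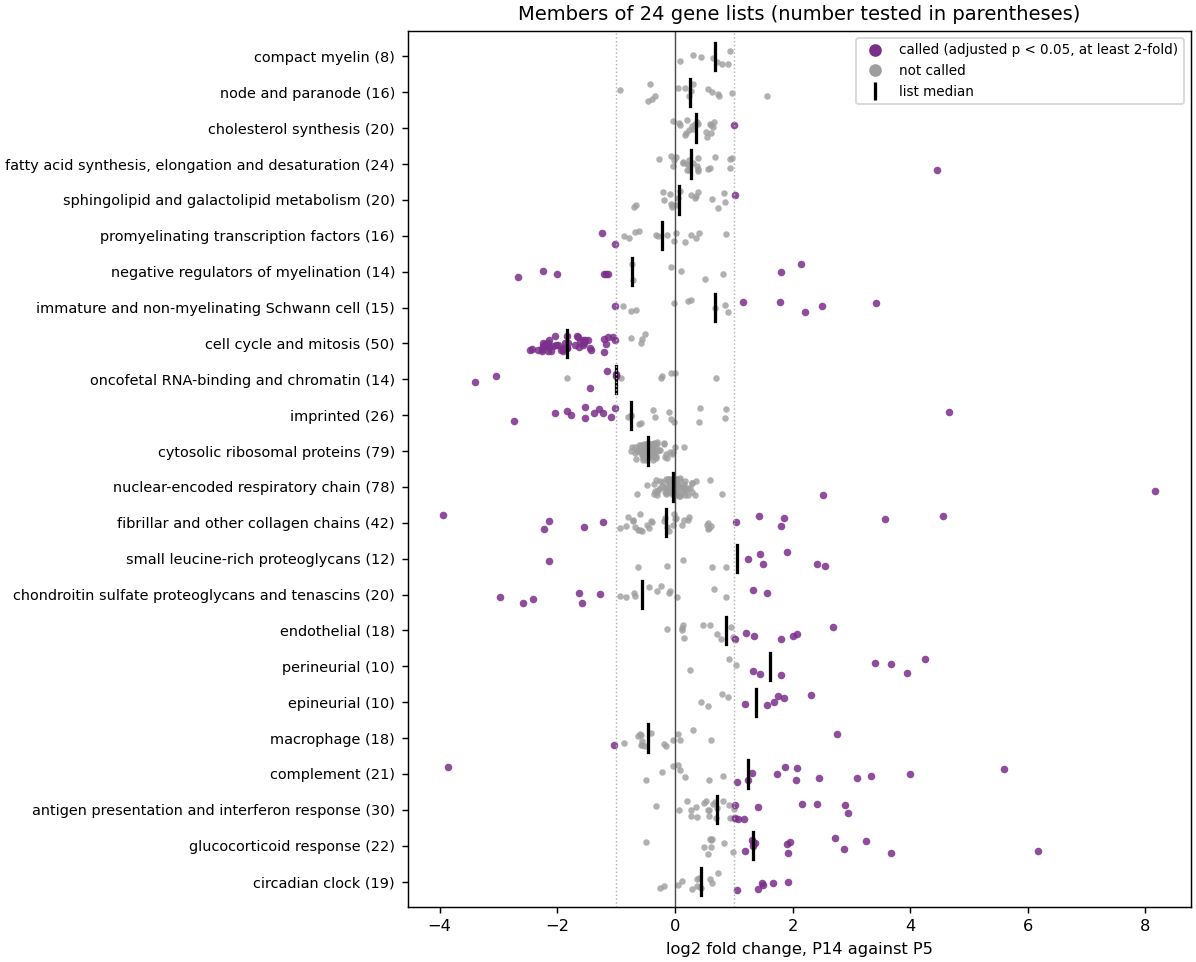
Log2 fold changes of P14 against P5 for the members of 24 gene lists (purple, called; grey, not called; black bar, list median; dotted lines at a 2-fold change). Cell cycle genes lie to the left as a block with a median of -1.84, compact myelin genes lie between 0 and 1, and complement and glucocorticoid response genes spread to the right with medians of 1.25 and 1.32.

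Matrix genes moved in both directions. The 42 collagen chains had a summed level of 27038 to 34668 CPM at P5 and 27843 to 35803 at P14, with 6 chains higher and 5 lower. The fibrillar chain Col3a1 had 7668 to 9989 and 7623 to 11290 CPM, and Col1a1 3501 to 5312 and 2612 to 3967. Both overlapped between the ages. The largest fall was Col2a1, a fibrillar collagen of cartilage also found in endoneurial mesenchymal cells, at 68.7, 53.4, 59.7 and 55.1 CPM at P5 and 2.81, 3.28, 3.84 and 5.36 at P14 (-3.94 ± 0.31, adjusted p = 1.6e-10). Col23a1, a membrane collagen, rose from 105 to 120 CPM to 374 to 426 (1.81 ± 0.13, adjusted p = 6.6e-11).

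The collagens of other basement membranes and of beaded filaments rose unevenly between P14 libraries. Col4a3 had 0.201 to 0.385 CPM at P5 and 10.9, 4.58, 5.23 and 9.57 at P14 (4.56 ± 0.59, adjusted p = 9.1e-07). Col6a5 had 3.79 to 7.56 CPM at P5 and 108, 27.8, 28.9 and 122 at P14 (3.58 ± 0.60, adjusted p = 4.3e-05), and Col4a4 4.92 to 6.65 and 28.4, 17.7, 16.3 and 26.1 (1.85 ± 0.28, adjusted p = 1.2e-05). P14 replicates 1 and 4 were highest for all 3, and they also had the highest perineurial sums (633 and 637 CPM against 513 and 580). The part of perineurial tissue in these rises was not tested.

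Of 12 small leucine-rich proteoglycans, which regulate collagen fibril width, 6 rose and 1 fell, with a median of 1.06. Ogn, osteoglycin, had 629, 752, 660 and 794 CPM at P5 and 1784, 2195, 1819 and 1969 at P14 (1.45 ± 0.34, adjusted p = 0.0015). Fmod, fibromodulin, had 3.79 to 5.53 CPM at P5 and 45.2, 11.9, 14.7 and 38.8 at P14, again highest in replicates 1 and 4 (2.55 ± 0.54, adjusted p = 6.9e-04). Dcn, decorin, had 630 to 744 and 1013 to 1383 CPM, below the fold minimum (0.88 ± 0.20, adjusted p = 0.0014). The crosslinking enzyme Lox rose from 33.0, 47.9, 52.2 and 40.9 CPM to 280, 416, 371 and 264 (2.94 ± 0.26, adjusted p = 2.1e-09), the only call among 26 collagen processing genes. Of 20 proteoglycans, tenascins and related matrix genes 6 fell and 2 rose. The microfibril gene Fbn2 had 164 to 195 CPM at P5 and 22.5 to 36.5 at P14 (-2.58 ± 0.22, adjusted p = 7.0e-10) and Postn, periostin, 816 to 997 and 175 to 461 (-1.59 ± 0.47, adjusted p = 0.011). Tnxb, tenascin X, rose instead, from 107 to 179 CPM to 388 to 472 (1.57 ± 0.22, adjusted p = 3.2e-06).

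Among 26 laminins, integrins and basal lamina genes 7 rose and 2 fell. Lama1, the laminin chain of the embryo, fell from 7.53 to 11.6 CPM to 0.939 to 1.53 (-2.82 ± 0.23, adjusted p = 3.2e-10), while Lama5, a chain of vascular basement membranes, rose from 17.6 to 24.6 to 59.5 to 68.7 (1.62 ± 0.26, adjusted p = 1.8e-05). Itga3 rose from 2.64 to 4.55 CPM to 17.3 to 25 (2.44 ± 0.24, adjusted p = 8.4e-09) and Itga7, a laminin receptor of myelinating Schwann cells, from 90.0 to 115 to 207 to 217 (1.04 ± 0.19, adjusted p = 1.0e-04), a call lost under library totals alone and without P5 replicate 4. Itgb4, which forms the alpha6 beta4 laminin receptor of the outer Schwann cell surface and of perineurial cells, rose from 106 to 147 CPM to 296 to 356 (1.33 ± 0.24, adjusted p = 8.6e-05).

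Of 18 endothelial genes 7 rose and none fell, against 7.11% of all genes tested that rose. Abcb1a, the drug efflux pump of barrier endothelium, had 8.38, 9.65, 9.11 and 9.84 CPM at P5 and 58.3, 60.3, 65.8 and 54.5 at P14 (2.69 ± 0.23, adjusted p = 6.8e-10). Cldn5, the claudin of endothelial tight junctions, rose from 7.78 to 12.3 CPM to 32.1 to 48.2 (2.01 ± 0.27, adjusted p = 1.8e-06). Slc2a1, the glucose transporter GLUT1 of vessels and perineurium, rose from 29.1 to 34.3 CPM to 104 to 120 (1.8 ± 0.23, adjusted p = 7.1e-07), and Mfsd2a, a lipid transporter, from 67.8 to 76.2 to 155 to 183 (1.20 ± 0.18, adjusted p = 6.9e-06). Pecam1 (62.9 to 77.5 and 61.4 to 101 CPM, 0.15 ± 0.15) and Cdh5 (66.0 to 81.0 and 69.1 to 92.3 CPM, 0.14 ± 0.16) overlapped between the ages, and the sign of both small changes turned under library totals alone.

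Markers of the layers stripped from the nerve rose with them. Of 10 perineurial genes 7 rose and none fell, against 7.11% of all genes tested that rose, with a median of 1.62. Slc2a1 and Itgb4 were among them. The keratin Krt19 had 0.147 to 0.813 CPM at P5 and 9.30, 4.52, 4.74 and 7.37 at P14 (3.95 ± 0.56, adjusted p = 4.5e-06). Msln, mesothelin, had 0.875, 1.15, 1.28 and 1.10 CPM at P5 and 31.5, 14.5, 14.2 and 24.6 at P14 (4.26 ± 0.56, adjusted p = 1.4e-06). Of 10 epineurial genes 6 rose and none fell, against the same 7.11%, with a median of 1.38. Ly6c1, which is also found in endothelium, rose from 7.71 to 9.97 CPM to 34.1 to 54.3 (2.32 ± 0.18, adjusted p = 2.6e-10). Of 9 endoneurial mesenchymal genes 1 rose and 1 fell, and their sum was 338 to 382 CPM at P5 and 354 to 410 at P14. How much of each layer was left on a nerve cannot be told apart from its expression.

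Complement genes made up one of the lists with the largest share of rises, 12 of 21 with 1 fall, against 7.11% of all genes tested. C4b, the central component of the classical pathway, had 1.04, 0.716, 1.5 and 0.624 CPM at P5 and 45.2, 41.5, 55.4 and 42.2 at P14, a 48.3-fold rise (5.6 ± 0.31, adjusted p = 6.8e-13). The rises included inhibitors as well as components. Cd55, which speeds the decay of convertases, rose from 16.3 to 20.6 CPM to 92.1 to 103 (2.45 ± 0.27, adjusted p = 7.2e-08), and Cd59a, which blocks the membrane attack complex, from 42.6 to 49.3 to 178 to 198 (2.07 ± 0.14, adjusted p = 9.2e-12). The fluid-phase inhibitors Clu (3.10 ± 0.26, adjusted p = 7.7e-10) and Serping1 (1.32 ± 0.21, adjusted p = 2.1e-05) rose too. C2, a classical pathway component, had 8.04 to 11.4 CPM at P5 and 61.6, 20.4, 22.9 and 46.1 at P14, so that it was highest in P14 replicates 1 and 4, those with the highest perineurial sums. C4b and Cd59a were lowest or nearly so in replicate 4. The only fall, C7, a late component, had 0.201 to 0.624 CPM at P5 and no more than 0.113 at P14, and was not called without P14 replicate 3 or without P14 replicate 4.

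Of 18 macrophage genes 1 rose and 1 fell, 7 had an adjusted p under 0.05 with a lower level at P14 (14.2% of all genes tested), and in 8 every P14 library lay below every P5 library (22.0% of all genes tested). The list median was -0.45. Cd163, the haemoglobin scavenger receptor, rose from 1.37 to 3.81 CPM to 14.3 to 17.9 (2.76 ± 0.41, adjusted p = 7.8e-06), and Cx3cr1, the fractalkine receptor, fell from 46.1 to 50.9 to 18.9 to 30.6 (-1.04 ± 0.19, adjusted p = 9.2e-05), a call lost without P14 replicate 1 or 2. The general macrophage gene Csf1r had 71.5 to 87.5 and 59.7 to 83.4 CPM. Of 30 genes of antigen presentation and the interferon response 9 rose, none fell and 21 had an adjusted p under 0.05 with a higher level at P14, against 7.11%, 4.91% and 15.4% of all genes tested. Ifit3, an interferon-induced gene, had 1.38 to 1.89 CPM at P5 and 10.3 to 14.5 at P14 (2.89 ± 0.27, adjusted p = 3.8e-09), and the GTPase Gbp2 3.30 to 4.41 and 18.8 to 25.1 (2.42 ± 0.17, adjusted p = 3.2e-11). The class I heavy chain H2-K1 rose from 23.0 to 24.9 CPM to 47.4 to 52.1 (1.03 ± 0.17, adjusted p = 3.1e-05), its partner B2m had 237 to 262 and 367 to 387 (0.58 ± 0.11, adjusted p = 1.1e-04), and the class II chain H2-Aa overlapped, at 8.33 to 13.5 and 10.6 to 13.2. Under library totals alone 5 of the 30 rose, and H2-K1 was not among them.

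Of 22 genes known to respond to glucocorticoids 13 rose and none fell, against 7.11% of all genes tested that rose, 19 had an adjusted p under 0.05 with a higher level at P14, against 15.4%, and the median was 1.32. The summed level of the glucocorticoid response list was 841 to 868 CPM at P5 and 1798, 1829, 1962 and 1618 in P14 replicates 1 to 4. Zbtb16, a zinc finger repressor, had 0, 0.143, 0.214 and 0.184 CPM at P5 and 12.6, 10.6, 10.6 and 7.18 at P14, a 72.0-fold rise (6.17 ± 0.53, adjusted p = 1.1e-09). Tsc22d3, the glucocorticoid-induced leucine zipper, had 22.6, 21.2, 21.3 and 20.8 CPM at P5 and 176, 169, 175 and 108 at P14 (2.87 ± 0.22, adjusted p = 9.7e-11). Pdk4, which restrains the entry of pyruvate into mitochondria, rose from 1.41 to 2.86 CPM to 13 to 25 (3.25 ± 0.25, adjusted p = 1.9e-10), and the Krüppel-like factors Klf15 (1.96 ± 0.22, adjusted p = 8.8e-08) and Klf9 (1.32 ± 0.16, adjusted p = 4.6e-07) rose as well. P14 replicate 4 was the lowest P14 library for Zbtb16, Tsc22d3, Pdk4, Klf15 and Klf9 and for the sum. It also had the lowest adipocyte sum (24.3 CPM, against 131 to 178 in the other P14 libraries), and replicate 3 was highest for both sums. The part of fat tissue in these rises was not tested.

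Other targets of the same hormone moved less. Fkbp5, a co-chaperone of the receptor, had 14.3 to 17.7 CPM at P5 and 21.2 to 36.2 at P14 (0.84 ± 0.22, adjusted p = 0.0054), and the kinase Sgk1 91.1 to 125 and 128 to 194 (0.61 ± 0.18, adjusted p = 0.0094). Of the receptors, Nr3c1, the glucocorticoid receptor, had 93.1 to 110 and 142 to 167 CPM (0.62 ± 0.19, adjusted p = 0.017), and Nr3c2, the mineralocorticoid receptor, rose from 3.12 to 4.41 to 9.66 to 10.2 (1.36 ± 0.20, adjusted p = 4.8e-06). The full palindromic glucocorticoid response element, searched on both strands, occurred in 1 of the 28 windows of 250 bases found for 18 of these genes, that of Sgk1, a gene below the fold minimum, and in 3 of all 32851 windows. The shorter element TGTTCT occurred in 17.9% of the 28 windows and in 16.1% of all windows.

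Of 19 clock genes 6 rose and none fell (7.11% and 4.91% of all genes tested), among them Per1, which belongs to both lists, with 18.3 to 20.1 CPM at P5 and 90.6, 84.5, 67.3 and 50.6 at P14 (1.92 ± 0.27, adjusted p = 3.4e-06). Per2 rose from 3.45 to 4.59 CPM to 8.93 to 13.4 (1.42 ± 0.20, adjusted p = 3.7e-06) and the repressor Bhlhe40 from 13.7 to 17.5 to 42.4 to 53.6 (1.67 ± 0.13, adjusted p = 1.0e-10). The time of day at which nerves were collected is not given in the sources used here, and its part was not tested.

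**Figure D4:**
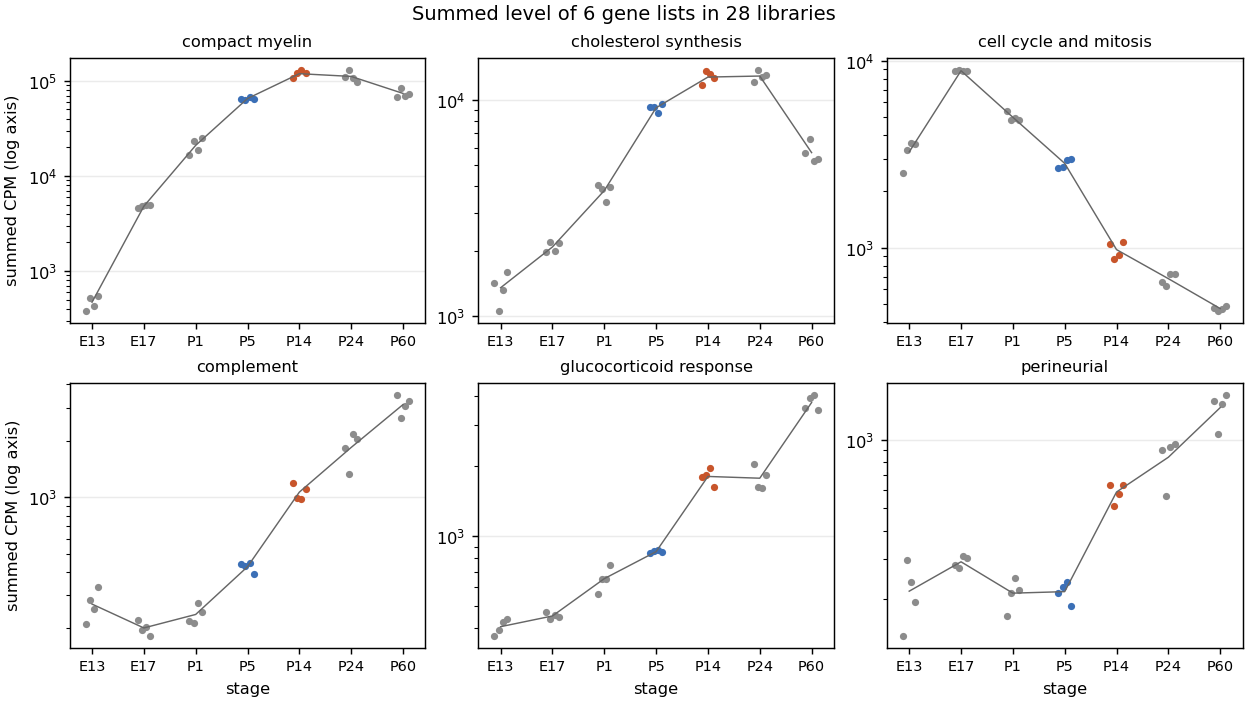
Summed CPM on a log axis of 6 gene lists in all 28 libraries, ordered by stage (blue, P5; red, P14; grey, other stages; line through stage means). Compact myelin and cholesterol synthesis reach their P14 level from below, cell cycle genes descend through it, and complement, glucocorticoid response and perineurial genes climb between P5 and P14 to levels that P60 exceeds.

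Trophic factors and their receptors moved in both directions, with 3 of 20 genes higher and 3 lower, Ngfr among the latter. The count of falls was 1 without P5 replicate 1, without P14 replicate 2 or without P14 replicate 4. Cntf, ciliary neurotrophic factor, had 69.7, 72.4, 74.0 and 74.1 CPM at P5 and 327, 357, 393 and 302 at P14 (2.25 ± 0.13, adjusted p = 2.1e-12). Its neighbour Zfp91 shares exon bases on the same strand, so the 2 genes could not be separated fully. Ret, the signalling receptor of the GDNF family, rose from 1.72 to 2.31 CPM to 20.3 to 28.2 (3.65 ± 0.42, adjusted p = 1.9e-07). Its co-receptor Gfra3 rose from 1.91 to 3.68 CPM to 10.6 to 12.6 (2.21 ± 0.27, adjusted p = 5.1e-07). All 3 rises were without overlap between the ages.

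Of 22 TGF-beta and BMP genes 5 rose and none fell, against 7.11% of all genes tested that rose. The count was 2 under library totals alone, without P5 replicate 1 and without P14 replicate 4, and 3 without P5 replicate 4 and without P14 replicate 1. Bmp7 had 23.4 to 26.9 CPM at P5 and 86.5 to 113 at P14 (2.00 ± 0.15, adjusted p = 7.8e-11) and was the most abundant at P14 of the 5. The secreted Wnt antagonists Frzb, from 13.4 to 15.9 CPM to 74.7 to 95.1 (2.57 ± 0.17, adjusted p = 6.6e-12), and Sfrp5, from 43.5 to 57.3 to 152 to 190 (1.85 ± 0.27, adjusted p = 4.7e-06), were 2 of 3 rises among 9. In the hedgehog pathway the ligand Dhh, which Schwann cells secrete, had 297 to 335 and 347 to 400 CPM (0.24 ± 0.15, adjusted p = 0.26), while its antagonist and target Hhip fell from 5.79 to 10.6 CPM to 0.613 to 1.99 (-2.60 ± 0.46, adjusted p = 7.6e-05) and the effector Gli3 from 14.3 to 16.8 to 4.78 to 7.67 (-1.34 ± 0.24, adjusted p = 9.0e-05). Erbb4, a neuregulin receptor, rose at the edge of the threshold, from 12 to 17 CPM to 22.7 to 30.9 (1.01 ± 0.26, adjusted p = 0.0043), and lost the call under 6 alternatives.

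Of 39 guidance genes 5 rose and 7 fell (7.11% and 4.91% of all genes tested). Sema5a rose from 297 to 342 CPM to 850 to 935 (1.49 ± 0.27, adjusted p = 1.0e-04) and the repellent Slit2 from 105 to 121 to 283 to 320 (1.41 ± 0.16, adjusted p = 2.0e-07). The ephrin receptor Epha5 fell from 80.9 to 109 CPM to 29.0 to 34.8 (-1.51 ± 0.22, adjusted p = 4.6e-06).

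Of 30 potassium channel genes 7 rose and 2 fell (7.11% and 4.91% of all genes tested), and inward rectifiers appeared in both directions. Kcnj10, the glial channel Kir4.1, had 551, 504, 479 and 587 CPM at P5 and 105, 90.5, 96.1 and 115 at P14 (-2.38 ± 0.15, adjusted p = 2.3e-12). Kcnj12, from 1.83 to 2.40 CPM to 9.83 to 12.4 (2.45 ± 0.25, adjusted p = 2.1e-08), and Kcnj2, from 2.44 to 3.12 to 10.9 to 21.0 (2.44 ± 0.42, adjusted p = 6.4e-05), rose from much lower levels. Of 26 axonal cytoskeleton and growth genes, whose transcripts can come from axons or from Schwann cells, 4 fell and none rose. Tubb2b, a tubulin of growing cells, fell from 332 to 383 CPM to 150 to 165 (-1.16 ± 0.20, adjusted p = 8.1e-05) and the neurofilament light chain Nefl from 9.59 to 13.1 to 3.99 to 6.09 (-1.24 ± 0.20, adjusted p = 2.4e-05). Neuronal cell body genes summed to only 14.5 to 19.1 CPM at P5 and 17.9 to 21.8 at P14.

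Housekeeping groups moved by small amounts. Of 79 cytosolic ribosomal protein genes none was called, but 43 had an adjusted p under 0.05 with a lower level at P14 (14.2% of all genes tested) and none with a higher one, and the median was -0.45. Their sum was 24402 to 28788 CPM at P5 and 19113 to 21276 at P14. Of 78 nuclear-encoded respiratory chain genes 2 rose and none fell, with a median of -0.03. Of 31 genes of glycolysis, lactate shuttle and pyruvate entry 4 rose, among them Aldoc, from 6.75 to 8.88 CPM to 24.2 to 36.1 (1.91 ± 0.22, adjusted p = 1.3e-07), and Pcx, pyruvate carboxylase, from 29.2 to 39.0 to 61.0 to 76.0 (1.02 ± 0.26, adjusted p = 0.0041), which lost the call under 6 alternatives.

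The 12 largest rises and 12 largest falls reached beyond these groups. They were taken among abundant genes (at least 10 CPM on average at the higher age) without overlap between the ages. Serpind1, the thrombin inhibitor heparin cofactor II (chr16:17331371-17343575, GRCm38), had 6.67, 5.39, 5.13 and 6.79 CPM at P5 and 114, 116, 128 and 106 at P14 (4.27 ± 0.19, adjusted p = 5.4e-15). Sult1a1, a sulfotransferase, rose from 12.2 to 15.3 CPM to 152 to 181 (3.67 ± 0.14, adjusted p = 5.2e-16), the smallest adjusted p among the 24. Aldh1a1, which makes retinoic acid, rose from 0.771 to 1.11 CPM to 18.7 to 24.5 (4.51 ± 0.23, adjusted p = 2.5e-13), and Them5, an acyl-CoA thioesterase, from 1.06 to 1.96 to 26.8 to 35.2 (4.26 ± 0.26, adjusted p = 2.1e-12). Fgf4, a growth factor best known from the embryo (chr7:144847367-144865243), had 1.21, 1.23, 1.33 and 1.29 CPM at P5 and 18.2, 22.2, 22.8 and 19.8 at P14 (4.03 ± 0.31, adjusted p = 1.1e-10). The others were Myoc, myocilin (4.51 ± 0.37), Slco1a4, an organic anion transporter (3.86 ± 0.32), Mpzl2 (3.79 ± 0.59) and Ntn4, a netrin (3.68 ± 0.33), besides Zbtb16, C4b and Msln.

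The falls held neuronal, muscle and membrane genes that are not on one list. Csrp2, a LIM protein of immature smooth muscle, was the most abundant, with 549, 541, 548 and 536 CPM at P5 and 82.3, 71.7, 80.3 and 84.0 at P14 (-2.77 ± 0.17, adjusted p = 2.4e-12). Gria2, a subunit of the AMPA glutamate receptor, fell from 47.2 to 65.4 CPM to 4.50 to 7.60 (-3.17 ± 0.32, adjusted p = 1.3e-08). Tenm4, a teneurin (chr7:96171246-96911093), fell from 21.3 to 22.5 CPM to 1.36 to 3.22 (-3.33 ± 0.29, adjusted p = 1.3e-09), and Slc38a1, a glutamine transporter, from 11 to 14.5 to 1.23 to 1.52 (-3.25 ± 0.25, adjusted p = 1.2e-10). Abca12, a lipid transporter, changed by -2.86 ± 0.31 (adjusted p = 5.1e-08), the angiotensin receptor Agtr2 by -2.74 ± 0.45 (adjusted p = 3.0e-05) and Cdca7l, a target of Myc, by -2.52 ± 0.15 (adjusted p = 1.5e-12). Prnd, a prion-like gene, fell by 2.73 ± 0.22 on the log2 scale, but shares most of its exon bases on the same strand with the readthrough gene Prn. The remaining falls were Col2a1, Igf2bp3, Hmga2 and Fbn2.

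**Figure D5:**
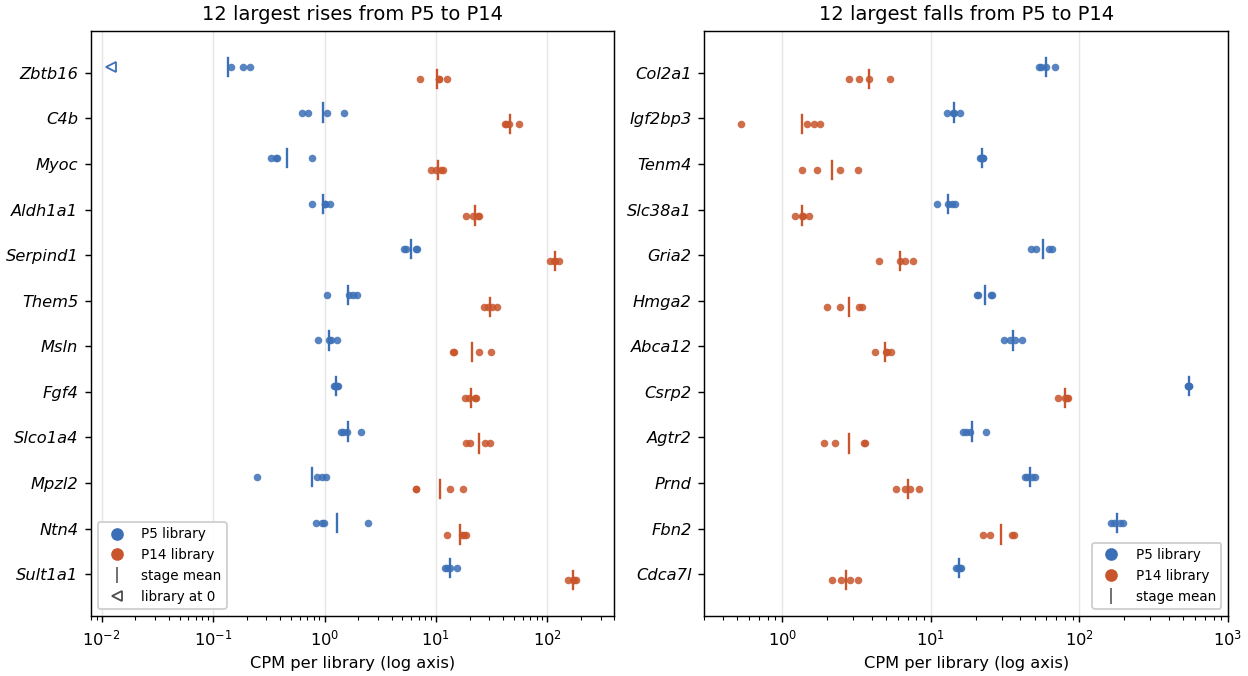
CPM on a log axis in each P5 (blue) and P14 (red) library for the 12 genes with the largest rises (left) and the 12 with the largest falls (right) among abundant genes; bars are stage means and the open triangle a library without counts. The genes were chosen to have no overlap between the ages, and among the rises Msln and Mpzl2 spread most across the P14 libraries.

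Only 6 genes were called in opposite directions in P14 against P5 and in P24 against P1, and apart from Gfra3 none had a stage mean above 10 CPM at any of the 4 ages. Gfra3 went from 11.5 CPM at P1 to 2.57 at P5, 11.8 at P14 and 4.22 at P24 (stage means), so that its rise to P14 stood between lower values. Dnah9, a dynein of cilia, had 1.05 CPM at P1, 7.52 at P5, 2.20 at P14 and 2.99 at P24, with its highest of these levels at P5 (6.93 to 8.67 CPM). Hbb-y, an embryonic globin, had 0.0834 to 0.257 CPM at P5 and 1.47 to 5.85 at P14, and Fabp3, a muscle fatty acid binding protein, 0.147 to 0.258 and 0.307, 1.86, 2.61 and 0.608. Lrrc55 and E230001N04Rik had stage means of no more than 1.31 CPM at either age. The calls for both were lost on leaving out single libraries.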

How the data were processed

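The values were raw read counts per gene as deposited by the authors, who made stranded poly-A libraries with a TruSeq kit, read them from 1 end on a HiSeq4000, trimmed and aligned the reads and summed them per gene without normalizing. The submitters' processing notes name STAR 2.6.1c, featureCounts, bcl2fastq and GRCm38.p5, while the methods name a human build. Strand and multimapping settings are not given in the sources used here. Gene identifiers were matched to GENCODE M21 (99.79% of 41605).

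All 28 libraries were fitted together by stage in edgeR 4.0.16 (R 4.3.3), after filterByExpr and TMM scaling, and P14 was contrasted with P5. SE is the log2 fold change divided by the square root of F. Levels are CPM. In simulated counts the test recovered 39 of 83 genes changed 2-fold with both thresholds (78 by adjusted p alone) and all 55 changed 4-fold. A true 2-fold change lies on the fold minimum, so many such genes must miss it. The simulation was easier than the data. Its spread was the same at every stage and below the common dispersion of 0.0439 estimated here, and only genes above a minimum level were changed.

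The members, gene lists and tests were chosen with earlier results of these data known. Named genes were the 12 largest rises and 12 largest falls with at least 10 CPM at the higher age. Both were limited to called genes without overlap between the ages, clone names left out. Each had more than 3 counts in at least 1 library per age. Also named were up to 4 called members per list with at least 5 CPM, the Schwann cell lists and the largest CPM shifts. Further list members were chosen after their values were seen. Some genes are not reported here. Labels do not pair replicate numbers across ages, and correlations of same-numbered libraries ran from -0.031 to 0.366. Those of differently numbered libraries ran from -0.359 to 0.303. Replicates are separate mice. DESeq2 1.42.0, limma 3.58.1 and other alternatives were tried.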

Additional observations from a re-analysis of the deposited data

Results flagged for a closer look

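Dixon's test, which by chance flags about 1 group in 20, marked a library as far from the other 3 of its age in 23 of 456 groups tested. Among genes at P5, replicate 3 was high for Myoc (0.77 CPM, others 0.333 to 0.372), Ntn4 (2.44, others 0.834 to 0.991) and Sfrp5 (57.3, others 43.5 to 45.7). Replicate 1 was high for Jun (34.7, others 25.5 to 26.9) and Cx3cr1 (50.9, others 46.1 to 46.6) and low for Col4a4 (4.92, others 6.42 to 6.65) and Ifit3 (1.38, others 1.84 to 1.89). Replicate 4 was high for Erbb4 (17, others 12 to 12.1) and low for Slc2a1 (29.1, others 33.7 to 34.3), Gbp2 (3.30, others 4.38 to 4.41) and Fabp3 (0.147, others 0.250 to 0.258).

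At P14, replicate 1 was high for Scn7a (618 CPM, others 564 to 572), Cd163 (17.9, others 14.3 to 14.6) and Pax3 (0.0511, others 0) and low for Frzb (74.7, others 92 to 95.1). Replicate 2 was high for C7 (0.113, others 0) and low for Cdh2 (54.8, others 58.1 to 58.6) and Bhlhe40 (42.4, others 52.5 to 53.6), replicate 3 for Dcn (1013, others 1323 to 1383) and replicate 4 for Tsc22d3 (108, others 169 to 176). Among summed lists, P14 replicate 4 was high for laminins, integrins and basal lamina (18420 CPM, others 16744 to 16938), and P5 replicate 3 was high for mast cell genes (48.8, others 15.1 to 19.6) and for glycolysis, lactate shuttle and pyruvate entry (3353, others 3034 to 3067).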

How the results depend on the processing

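The count of genes called, 2127, was 5233 (2719 higher, 2514 lower) with no fold minimum, and stayed within 1.5 times of its value under the other 18 alternatives, from 1945 without P14 replicate 3 to 2453 under limma-voom. With only the P5 and P14 libraries in the fit, 1959 genes were called. The unadjusted quasi-likelihood p was under 0.05 for 9003 of 15372 genes there. It was so for 8762 of 16662 without the E13 libraries and for 6903 of 17700 in the main fit. The median log2 distance from the other libraries of a stage was 0.683 and 0.618 for E13 replicates 1 and 4. At P5 and P14 it was 0.112 to 0.171. With the replicate number as a block, 2120 genes were called. The numbers were not found to pair single libraries, although component 2 set replicates 1 and 2 apart from 3 and 4 at both ages. The share of the 10 top genes was higher at P14 by 6.23 to 6.78 percentage points on leaving out 1 library (exact p = 0.057, the smallest 4 against 3 allow). Over all named genes and alternatives, 2998 values kept direction and side of the threshold, 61 lost the call and 8 turned sign. Of the list counts 80 moved by over 1.5 times and 946 did not. Summed levels of 45 of the 57 lists moved by more than the spread between replicates under library totals alone, and none did on leaving out a library. Small changes of genes that were not called turned sign. Under library totals alone the log2 fold change of Jun was -0.0674, the log2 fold change of Col3a1 -0.16, the log2 fold change of Pecam1 -0.0185 and the log2 fold change of Cdh5 -0.0362. For Col3a1 it was -0.0043 without the filter on low counts and -0.1057 to 0.0913 on leaving out 1 library, and for Pecam1 -0.0172 to 0.2394. The cause was not tested. Gm42418 lost its call under 10 alternatives. Depth limits genes near 0.128 CPM at P5 and 0.170 at P14, the level of 3 counts in the shallowest library.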
